A study of Mus musculus with 3 samples.

Results

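The 42 genes described here encode the plasma proteins of the complement and coagulation systems, and they were taken from 21631 protein-coding genes on the autosomes and the X chromosome. The list was drawn up by gene function and holds 22 complement genes and 20 coagulation genes. Chromatin accessibility at these genes was read by ATAC-seq, in which Tn5 transposase inserts sequencing adapters into open DNA. The cells were hepatocytes from WT mice that had received the virus AAV8-TBG-Cre, labelled EV, and they were collected 4 days later. TBG is a promoter active in hepatocytes and drives Cre recombinase in this virus. The genotype label names no floxed allele, and age, sex and strain are not given in the sources used here. There is 1 group of 3 libraries, those labelled EV replicates 1, 2 and 3, and libraries labelled with the Sox4 virus are not analysed here. The comparison made is between complement and coagulation genes, each set beside all protein-coding genes, and it describes these libraries.

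Complement is a cascade of plasma proteases that marks microbes and damaged cells, beginning with recognition by the C1 complex or by mannose-binding lectins, passing through cleavage of C3, and ending in a membrane pore built from C5b to C9. Coagulation is a second protease cascade, in which contact factors and tissue factor lead to thrombin and fibrin, while antithrombin, the protein C system and plasmin hold clotting in check. Hepatocytes make most of these proteins, and liver-enriched transcription factors such as HNF1, HNF4, FOXA and C/EBP act at many of their promoters.

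The 3 peak lists held 108997, 119230 and 110455 peaks, called from 96066404, 116147036 and 117450440 tags in replicates 1, 2 and 3. All values of 3 libraries below are in that order. Pileup is the number of extended tags at a summit and is not scaled for depth, so it is also given as a multiple of the list's median peak, which was 133, 125 and 157. Fold is the authors' ratio of pileup to the local background, and its percentile is a rank within 1 list. Pileup cannot tell a site open in more cells from one more open in each cell, and a missing peak means only that the authors' threshold was not passed. All 7 hepatocyte markers, among them Alb, Apob and Hnf4a, carried gene-end peaks in every library. The same held for 3 of 6 cholangiocyte, 1 of 6 macrophage, 1 of 6 endothelial, 3 of 6 stellate and 1 of 6 lymphocyte markers. Of all protein-coding genes, 64.4% had such peaks. Some markers without a gene-end peak had regions with a peak of all 3 libraries inside the gene. Stab2 had 12, Pecam1 6 and Csf1r 4, while others, such as Cdh5 and Adgre1, had none. The library labelled EV replicate 2 stood apart at Sox4, the gene carried by the series' other virus, with a gene-end pileup of 2544, against 128 in replicate 1 and 134 in replicate 3. This goes against its label, so it may not be an EV library, but the cause of the signal was not tested. Replicate 2 below means the library with that label. No label states whether separate mice gave the libraries, so part of the spread may be technical.

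Nearly all of these genes were open at an end. A peak within 1000 bp of a gene end was present in all 3 libraries at 20 of 22 complement genes and 20 of 20 coagulation genes, against 64.4% of all protein-coding genes. Both gene ends carried a peak in all 3 libraries at 9 complement genes and 12 coagulation genes, against 13.9% of all protein-coding genes. Without the library labelled EV replicate 2, the counts of genes open at an end were again 20 and 20, and those of genes open at both ends were 11 and 14. The exceptions among the 42 were C7, with no gene-end peak in any library, and Masp2, with 1 weak peak in replicate 1. By height the order of the members and all open genes changed with the library. The median of the tallest gene-end pileup was 4.43 ± 0.358 times the median peak for complement genes, 4.91 ± 0.392 times for coagulation genes and 4.60 ± 0.709 times for all protein-coding genes with such a peak (SD over 3 libraries). By fold the members ranked lower, at a median percentile of 66.0 ± 6.0 for complement genes and 72.2 ± 2.52 for coagulation genes, against 76.5 ± 2.92 for all protein-coding genes with such a peak. By library these percentiles were 60.1, 72.1 and 65.7 for complement genes and 73.0, 74.2 and 69.4 for coagulation genes, so the class order was the same in all 3 while the ranges overlapped. At open start sites alone they were 58.6, 66.6 and 59.1 for complement and 59.2, 66.5 and 63.5 for coagulation genes. There the order did not hold in replicate 2.

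**Figure D1:**
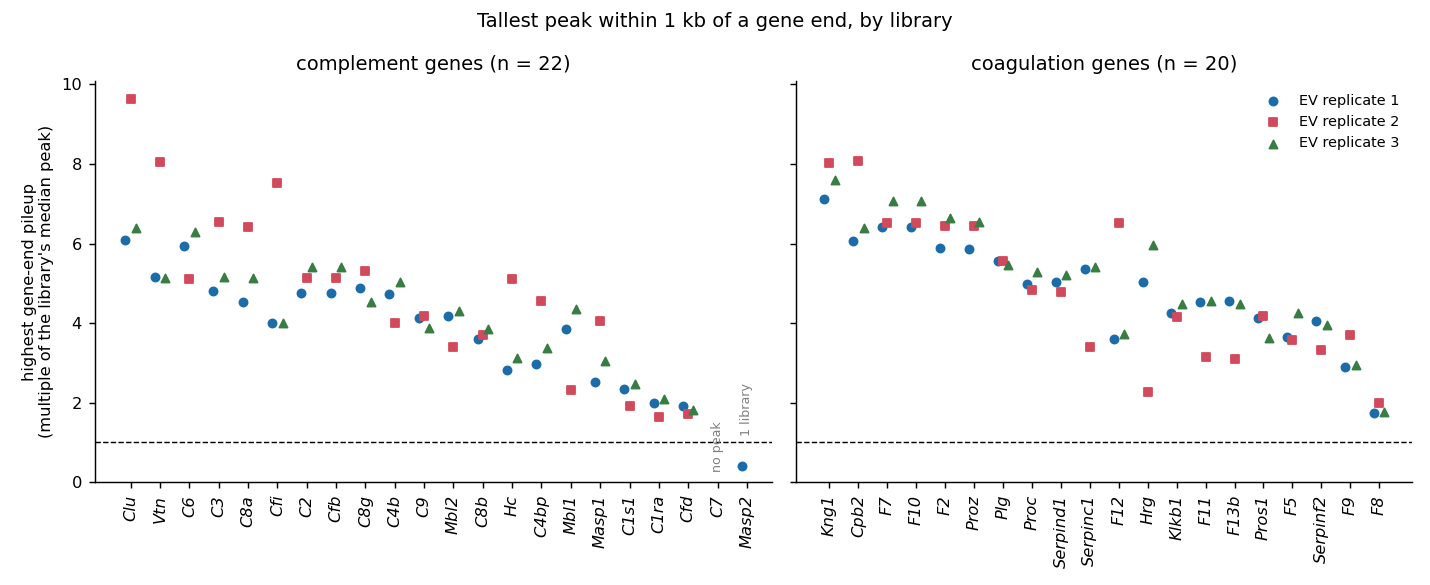
Tallest pileup within 1000 bp of a gene end for each complement gene (left) and each coagulation gene (right), as a multiple of the median peak of its library (dashed line at 1), with 1 point per library and genes ordered by their mean. C7 has no point and Masp2 has 1, while the other 40 genes lie above the median peak of every library.

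The genes that start the complement cascade were open to unequal heights. C1ra and C1s1 encode the proteases of the C1 complex and lie 6903 bp apart on chromosome 6. C1ra had start-site pileups of 266, 206 and 327, and C1s1 of 310, 238 and 389, which at 1.91 and 2.24 times the median peak on average were among the lowest of the open complement genes. The mannose-binding lectins bind sugars on microbes: Mbl1 had 513, 291 and 682, and Mbl2, which was among the 3 complement genes lowest by percentile of gene-end fold, had 555, 424 and 677. Masp1 encodes a lectin-pathway protease and had gene-end pileups of 334, 506 and 478, in a region that also lies at an end of Rtp4. Masp2, the lectin-pathway protease that cleaves C4 and C2, reached only 55 within 1000 bp of an outer gene end, at a fold of 2.02, and in replicate 1 alone. At its RefSeq start site, which lies 7922 bp inside the gene's outer limits, the same gene had 469, 382 and 581, so this start was open in all 3 libraries. C4b and C2 supply the subunits of the classical C3 convertase. C4b (chromosome 17, 34728139 to 34743902) had gene-end pileups of 629, 500 and 791 at folds of 12.2, 16.9 and 15.0, the second-highest mean percentile of the complement class at 87.2. C2 had 633, 642 and 851, in a region that it shares with the next gene, Cfb.

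C3, the component on which all complement pathways meet, had pileups of 639, 818 and 808 at its start site, 5.50 times the median peak on average. Its gene-end folds of 5.34, 5.73 and 5.81 were nonetheless the lowest by percentile, at 46.4, of the complement genes open at an end in all 3 libraries. Cfb, the protease subunit of the alternative-pathway convertase, shares its gene-end region with C2, as above. Cfd, factor D, which cleaves factor B, differed from both. It had no peak at its start site in any library, and its only gene-end peak, with pileups of 255, 214 and 283, lay at the other end. Adipose tissue is the known main source of factor D in mice.

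The terminal components ranged from the highest percentile of the complement class to no peak. Hc, the mouse C5, had gene-end pileups of 374, 639 and 489 at folds of 12.9, 15.6 and 12.9. Its RefSeq start site lies 7094 bp inside the gene's outer limits. The tallest region there was lower, at 262, 275 and 329 and folds of 4.29, 5.04 and 4.11. C6 (chromosome 15, 4727067 to 4804045) led the complement class by mean percentile of gene-end fold, at 89.5, with pileups of 791, 637 and 986 and folds of 16.0, 15.4 and 14.6. C7, further along the same chromosome (4987750 to 5063773), encodes the next protein to join the pore, and it had no peak at either end or inside the gene in any library. The tallest region in its flanks that lay at no protein-coding gene's end, with 321, 287 and 435, was centred 44.8 kb upstream of the start site. C8a and C8b, which encode 2 of the C8 chains, lie 11130 bp apart on chromosome 4. C8a reached 603, 801 and 807 at its other end but 257, 174 and 378 at its start site, so the far end was the taller one in every library. C8b had 478, 464 and 603 at its start site, at folds of 9.76, 12.5 and 9.73. C8g, the C8 gamma chain, and C9, which polymerises to complete the pore, had 650, 665 and 711 and 550, 521 and 607.

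The 4 complement regulators among the members were open in every library. Clu, clusterin, a plasma chaperone that also binds the terminal complex, had the tallest gene-end signal of the complement class, 810, 1203 and 1002, or 7.37 times the median peak on average. At Clu, replicate 2 was the highest of the 3. Vtn, vitronectin, had 2 regions near its start, both also within 1000 bp of an end of Sarm1. The region over the start had pileups of 685, 544 and 797, and the one upstream had 593, 1007 and 805. Replicate 2 was thus the lowest at the start and the highest upstream of it. Cfi, the protease that inactivates C3b and C4b, had 531, 939 and 627 at folds of 5.996, 7.70 and 5.41. C4bp, its cofactor for C4b, had 395, 570 and 530.

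Among the contact factors, Kng1 stood highest. It encodes kininogen, the precursor of bradykinin, and had gene-end pileups of 948, 1002 and 1192, or 7.58 times the median peak on average, the highest mean of all 42 genes. Klkb1, plasma prekallikrein, had 566, 519 and 705 at folds of 14.6, 16.8 and 14.7. F11, factor XI, lies 4632 bp from Klkb1 on chromosome 8 and had start-site pileups of 601, 278 and 714. F12, factor XII, had 479, 816 and 586. Replicate 2 was thus lowest at F11 and highest at F12. At F12 the tallest summit of replicate 2 lay 724 bp inside the gene, against 22 bp before the start in replicates 1 and 3. Hrg, histidine-rich glycoprotein, which binds heparin and plasminogen, had 669, 282 and 937.

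The vitamin K-dependent factors and their cofactors were open at folds that spanned most of the class. F9, factor IX (chromosome X, 59999329 to 60030760), had modest start-site pileups of 386, 462 and 462 but folds of 20.4, 18.2 and 17.9, the highest start-site folds of any member. F2, prothrombin, had 783, 804 and 1044 at folds of 7.93, 7.98 and 8.54. F7 had start-site pileups of 651, 598 and 749 at folds of 12.9, 15.5 and 12.9. F10 reached 852, 816 and 1109 at folds of only 6.21, 7.58 and 7.12. A tall pileup therefore went with a low fold at F10 and the reverse held at F9. F5, factor V, the cofactor of factor Xa, had start-site pileups of 411, 446 and 425. At its other end it had 486, 131 and 669, with folds of 17.5, 9.83 and 19.7, so the fold differed by more than 2 times between libraries and replicate 2 was the low one. F8, factor VIII, is made chiefly by endothelial cells. It had the lowest gene-end pileups of the coagulation class, 231, 248 and 278, at folds of 17.1, 15.0 and 15.6, in a region that also lies at an end of Fundc2. Its RefSeq start site, 2697 bp inside the gene, had no peak. F13b, the carrier subunit of the fibrin-stabilising factor XIII, had 606, 388 and 703.

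The members that limit clotting, dissolve clots or protect them were all open at a gene end in all 3 libraries. Proc encodes protein C and had gene-end pileups of 661, 604 and 831, and Pros1, its cofactor protein S, had 548, 523 and 569. Serpinc1, antithrombin, had 714, 425 and 850 at its gene end and was among the 3 coagulation genes lowest by percentile of fold, with F10 and Plg. Serpind1, heparin cofactor II, had 668, 597 and 817. Plg, plasminogen, had 739, 696 and 857 at folds of 5.90, 5.87 and 5.77, the lowest percentile of the class at 48.1. Cpb2 encodes a carboxypeptidase that protects fibrin from plasmin. It led the whole set by mean percentile of gene-end fold, at 96.4, with folds of 19.2, 19.99 and 19.1 and pileups of 807, 1008 and 1005 at its other end, in a region that also lies at an end of Zc3h13. Its start site was lower, at 470, 307 and 616 and folds of 11.02, 8.26 and 10.3. Serpinf2, the plasmin inhibitor alpha-2-antiplasmin, had 540, 414 and 619 at its start site, while the fold at its other end was 4.19, 12.3 and 5.49.

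A start site was taken from RefSeq for 33 members, 16 complement and 17 coagulation genes. A reproducible region, one with a peak of all 3 libraries, lay within 1000 bp of it at 14 complement and 16 coagulation genes, against 64.1% of 17274 protein-coding genes with an entry. The members lacking one were C7, Cfd and F8. C2, C4b, Cfb, Cfi, Masp1, Clu, Proc, Kng1 and Plg had no entry, and these 9 were open at a gene end in all 3 libraries. Summits lay close to the start: the median distance was 40.5 bp at the 30 open members and 76 bp at all 11078 open genes, and 66.7% of these members and 56.7% of all open genes had their summit within 100 bp. At Vtn the tallest summit lay 1301 bp upstream. The start-site regions of C8g, F5 and F10 also lie at an end of Fbxw5, Selp and F7. Start-site folds were medians of 7.98 ± 0.398 for complement genes, 8.26 ± 0.354 for coagulation genes and 11.3 ± 0.50 for all protein-coding genes with an open start (SD over 3 libraries).

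Many of these start sites were poor in CpG and yet open. The 300 bases from 250 before to 50 after the start held a median of 3 CpG in the complement class, 5 in the coagulation class and 13 among all protein-coding genes. Median GC content was 49.0% and 48.7%, against 56.7% of all. With 5 CpG or fewer, a limit chosen after the values were seen, 20 of 23 members had a reproducible start-site region, against 16.4% of the 5203 protein-coding genes in that class. With over 5 CpG, 10 of 10 members had one, against 84.7% of 12071 genes. Among open starts with 5 CpG or fewer, the median pileup was 4.15, 3.63 and 4.33 times the median peak for members and 2.35, 2.48 and 2.41 times for all protein-coding genes, so the members were higher in each library. Their folds were alike, at 8.37 ± 0.433 for members and 8.68 ± 0.322 for all protein-coding genes in that class (SD over 3 libraries). Without the library labelled EV replicate 2 the share was again 20 of 23 for members, against 888 of 5203. The 5203 genes of that class were not filtered for use in liver.

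**Figure D2:**
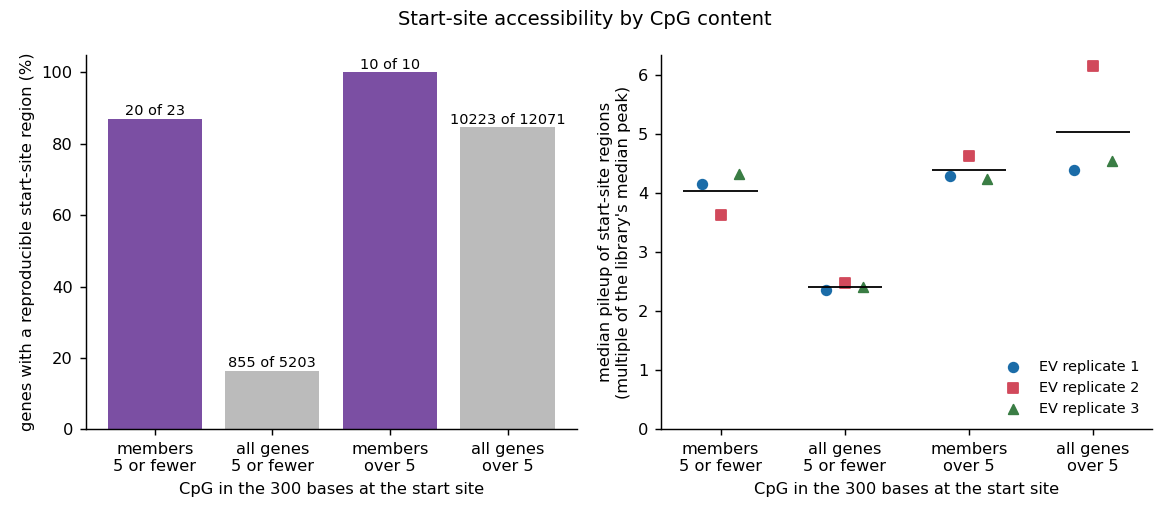
Left, percentage of genes with a reproducible region within 1000 bp of the start site, for members (purple) and all protein-coding genes (grey), split at 5 CpG in 300 bases. Right, the median pileup of those regions in each library (points) with the mean of the 3 libraries (line), as a multiple of the library's median peak. Members and all genes stand far apart in the low-CpG class, at 20 of 23 and 855 of 5203.

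The start sites at both extremes are printed to show what these windows look like in sequence. They are the 3 of each class with the highest mean start-site fold and the start sites of C7 and Cfd, which had no peak. The F8 start site also had no peak, but it lies 2697 bp inside the gene and is not printed. For starts without a peak, only those within 1000 bp of the gene's outer limit are shown. Each runs 5′ to 3′ along the gene, from RefSeq on GRCm38.p6, and the 251st base is the start site. C1s1 has 2 RefSeq starts, and the one its fold was measured from is shown. Capitals mark matches, on either strand, to CAAAGTNCA (HNF4), GTTAATNAT (HNF1), TGTTTAC (FOXA), TTGCNNAA (C/EBP) and, for the TATA box, TATAAA. F9 and F13b hold such letters near the start. Klkb1 holds FOXA letters near it, and C/EBP and TATA letters beginning 177 and 132 bases before it. C6, C1s1 and Mbl1 hold none, and the closed C7 window holds TATA letters only. At F13b the summits lay 301, 303 and 302 bp before the start, outside the printed window.
C6, chr15:4726960-4727259, plus strand: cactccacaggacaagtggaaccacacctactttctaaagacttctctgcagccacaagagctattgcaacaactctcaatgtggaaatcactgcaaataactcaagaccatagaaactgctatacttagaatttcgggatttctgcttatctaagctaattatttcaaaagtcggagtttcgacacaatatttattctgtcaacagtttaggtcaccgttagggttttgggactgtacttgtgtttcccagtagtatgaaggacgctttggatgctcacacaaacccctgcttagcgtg
C1s1, chr6:124542272-124542571, minus strand: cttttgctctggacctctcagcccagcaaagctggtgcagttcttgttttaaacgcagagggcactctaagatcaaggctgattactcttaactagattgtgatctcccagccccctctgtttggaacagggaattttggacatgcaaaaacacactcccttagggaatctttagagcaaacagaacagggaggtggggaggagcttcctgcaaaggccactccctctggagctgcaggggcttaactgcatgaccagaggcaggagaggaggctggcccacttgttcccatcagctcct
Mbl1, chr14:41151206-41151505, plus strand: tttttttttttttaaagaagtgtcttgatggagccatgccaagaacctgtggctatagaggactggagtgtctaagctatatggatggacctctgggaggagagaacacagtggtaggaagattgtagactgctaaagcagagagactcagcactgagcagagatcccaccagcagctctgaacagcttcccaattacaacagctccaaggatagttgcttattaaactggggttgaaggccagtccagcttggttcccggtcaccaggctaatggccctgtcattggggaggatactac
F9, chrX:59999214-59999513, plus strand: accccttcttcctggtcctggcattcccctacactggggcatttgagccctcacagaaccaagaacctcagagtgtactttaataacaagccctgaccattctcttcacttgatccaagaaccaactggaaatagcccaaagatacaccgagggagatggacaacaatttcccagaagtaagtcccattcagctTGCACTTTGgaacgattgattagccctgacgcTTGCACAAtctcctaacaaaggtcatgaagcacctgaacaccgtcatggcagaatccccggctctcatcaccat
Klkb1, chr8:45294786-45295085, minus strand: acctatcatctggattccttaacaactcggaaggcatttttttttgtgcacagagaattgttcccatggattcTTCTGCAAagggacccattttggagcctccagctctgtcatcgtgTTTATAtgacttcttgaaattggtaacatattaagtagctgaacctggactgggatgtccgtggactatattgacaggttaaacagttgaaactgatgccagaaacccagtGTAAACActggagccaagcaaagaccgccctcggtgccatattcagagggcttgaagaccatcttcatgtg
F13b, chr1:139501457-139501756, plus strand: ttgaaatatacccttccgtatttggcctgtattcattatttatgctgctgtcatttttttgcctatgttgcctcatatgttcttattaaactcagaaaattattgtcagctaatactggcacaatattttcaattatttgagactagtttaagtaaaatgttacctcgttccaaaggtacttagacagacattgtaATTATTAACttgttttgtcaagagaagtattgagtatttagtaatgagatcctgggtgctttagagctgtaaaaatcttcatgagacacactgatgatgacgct
C7, chr15:5063724-5064023, minus strand: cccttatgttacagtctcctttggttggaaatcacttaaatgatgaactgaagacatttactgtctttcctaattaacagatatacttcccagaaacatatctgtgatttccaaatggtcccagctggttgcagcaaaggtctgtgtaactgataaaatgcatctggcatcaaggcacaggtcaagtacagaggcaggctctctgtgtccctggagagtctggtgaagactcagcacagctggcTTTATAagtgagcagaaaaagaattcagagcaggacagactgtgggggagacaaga
Cfd, chr10:79890603-79890902, plus strand: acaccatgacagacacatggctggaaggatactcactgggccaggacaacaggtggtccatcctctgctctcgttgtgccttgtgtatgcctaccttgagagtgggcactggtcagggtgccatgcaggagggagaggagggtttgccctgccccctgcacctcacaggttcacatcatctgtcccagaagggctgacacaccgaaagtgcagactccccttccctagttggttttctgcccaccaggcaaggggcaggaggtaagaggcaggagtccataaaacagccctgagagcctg

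Over all 35 promoter windows of the 33 members, the letters of the C/EBP motif occurred in 4 of 18 complement and 6 of 17 coagulation windows, together 28.6%, against 10.3% of 21045 windows of all protein-coding genes. HNF1 letters occurred in 2 and 1 windows, together 8.57% against 0.727%, at C4bp, Hc and F13b, where the match began 64, 77 and 54 bases before the start. HNF4 letters occurred in no complement window and in 2 coagulation windows, F9 and Serpind1, together 5.71% against 1.32%. FOXA letters occurred in 2 coagulation windows, F11 and Klkb1, beginning 25 and 21 bases before the start, together 5.71% against 3.03%. TATA letters occurred in 4 and 2 windows, together 17.1% against 12.7%. At F9 the HNF4 letters began 56 bases and the C/EBP letters 24 bases before the start, under a summit that lay 40 bp before it. In people, changes in the HNF4 and C/EBP sites of the F9 promoter are known to cause a form of haemophilia B that can ease after puberty. Member windows had a median GC content of 48.7%, against 56.7% of all, and no share at matched composition is given. The part of composition in these shares was not tested. A match is a run of letters and not a measured binding site, and a window without one shows only that these letters are not in it.

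Away from the gene ends, the members carried more regions than most genes. A reproducible region lay inside 15 complement genes and 14 coagulation genes, against 47.4% of all protein-coding genes. The median was 1.5 such regions in both classes and 0 among all protein-coding genes, with ranges of 0 to 9 in both classes. Hc and Masp1 had 9 each and C8a 8, while F5 had 9, Pros1 7 and Plg and Serpinc1 6. Within 50 kb on either side, all 42 genes had at least 1 reproducible region, against 85% of all protein-coding genes. The median was 10 for complement genes, 7 for coagulation genes and 5 for all protein-coding genes, and 12 complement and 8 coagulation genes had 10 or more, against 22.6% of all. The ranges of the classes, 2 to 18 and 1 to 19, covered each other nearly whole.

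**Figure D3:**
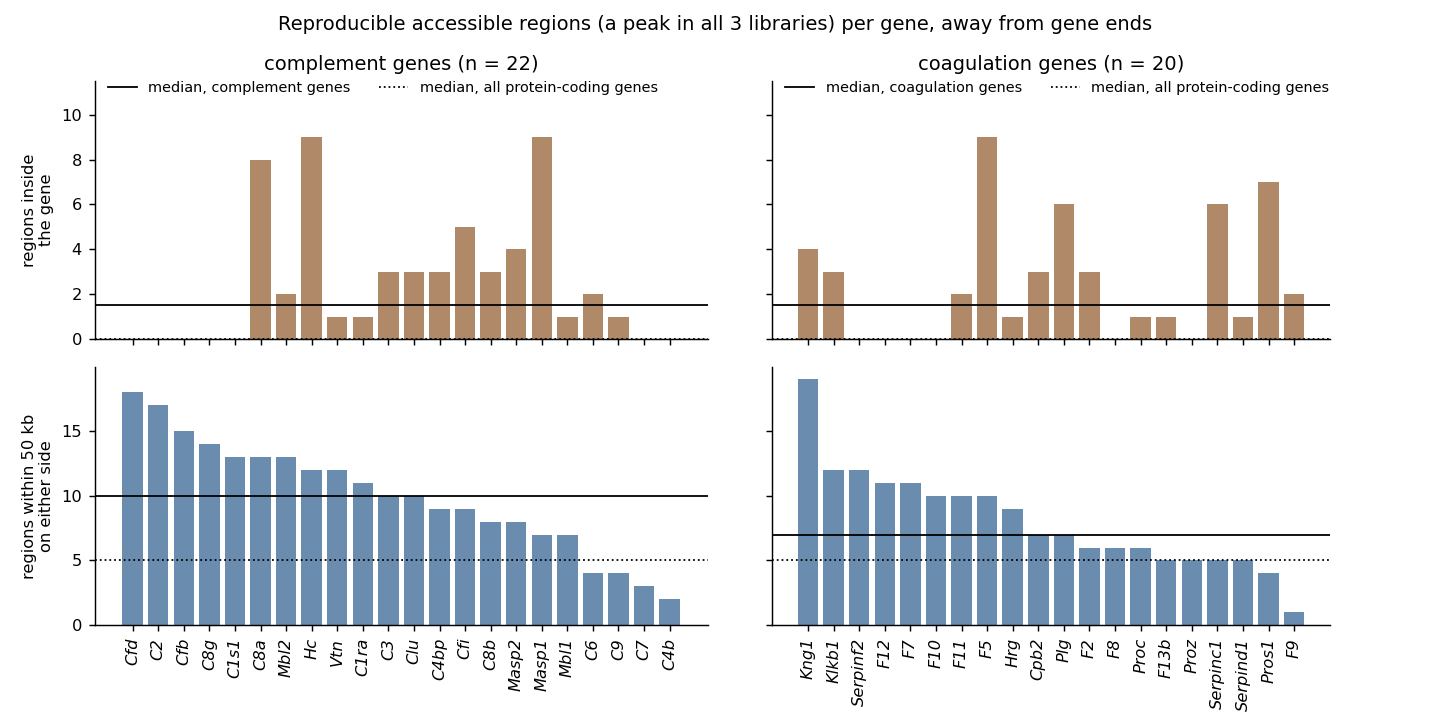
Number of reproducible regions inside each gene (top) and within 50 kb on either side of it (bottom), gene-end windows left out, for complement genes (left) and coagulation genes (right). Solid lines mark the class median and dotted lines the median of all protein-coding genes, which is 0 inside genes and 5 in the flanks. Cfd and Kng1 lead the flanking counts, and C4b and F9 end them.

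Part of the flanking regions lay at other genes. Of the flanking regions, 58 of 198 beside complement genes and 45 of 145 beside coagulation genes lay within 1000 bp of the end of another protein-coding gene. The same share over all protein-coding genes is not given here. Cfd had the most flanking regions of the complement class, 18, although its own start site had no peak, and they included the gene ends of Ptbp1, Med16 and Arid3a. Kng1 had 19, C2 17 and Cfb 15, while C4b had 2 and F9 had 1. Kng1 was thus first by both flanking regions and gene-end height, while Cfd was first in its class by flanking regions and among the lowest by height.

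The tallest region of a locus lay away from the gene about as often as elsewhere in the genome. Counting every region from 50 kb before to 50 kb after a gene, the tallest on average lay in the flank of 15 of 22 complement genes and 14 of 20 coagulation genes, against 62.7% of the 18977 protein-coding genes with a region. This is near the background, and 13 of the 15 and 11 of the 14 lay at the end of another protein-coding gene. The share of such ends over all protein-coding genes is not given here. C2 and Cfb, C1ra and C1s1, and F10 and Proz each counted the same region for both genes. With regions at protein-coding gene ends left out, the highest one left was beside Hrg. It lay 30.7 kb upstream, with pileups of 1047, 939 and 1314, against 669, 282 and 937 at the Hrg start site, so replicate 2 was low at the start site and near the other libraries upstream. Inside Masp1 a region reached 806, 639 and 1113, against 334, 506 and 478 at its taller gene end, which is also at an end of Rtp4. Inside Pros1 a region 68.2 kb downstream of the start site had 449, 247 and 591 at folds of 19.3, 15.5 and 21.1. Upstream of C6, 8.75 kb before the start site, a region had 324, 445 and 515 at folds of 18.7, 21.5 and 21.2. Upstream of Mbl2, 45.5 kb away, folds reached 21.1, 19.04 and 21.1, against 6.48, 5.32 and 7.24 at the start site. Proximity does not assign a region to a gene, and some of these lie nearer to other genes.

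Several members sit side by side and share regions, so they are not independent of one another. C2 and Cfb are separated by 87 bp, share 16 regions, and share the gene-end region from 34861229 to 34863030 on chromosome 17. C8a and C8b share 12 regions, as do C1ra and C1s1. F11 shares all 14 of its regions with Klkb1, among them one inside Klkb1 (chromosome 8, 45281385 to 45282293) with pileups of 820, 641 and 1021, taller than the start site of either gene in each library. F7, F10 and Proz stand in a row on chromosome 8, with 1498 bp between F7 and F10 and 3907 bp between F10 and Proz, which encodes protein Z, a cofactor for inhibition of factor Xa. The region from 13036239 to 13039109 covers both the end of F7 and the start of F10, with pileups of 852, 816 and 1109. Proz had 779, 804 and 1025 at its start site. No reproducible region lay inside any of these 3 genes away from their ends. In the flank of F7 and F10, a region from 13010282 to 13010878 had pileups of 433, 377 and 477 and folds of 24.7, 24.8 and 24.6, nearly equal in the 3 libraries. Its mean fold was exceeded at the members only by a flanking region of Plg (chromosome 17, 12335064 to 12335794), at folds of 28.4, 24.8 and 27.0. It lay 15.5 kb upstream of the F7 start site and 26.8 kb upstream of that of F10.

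**Figure D4:**
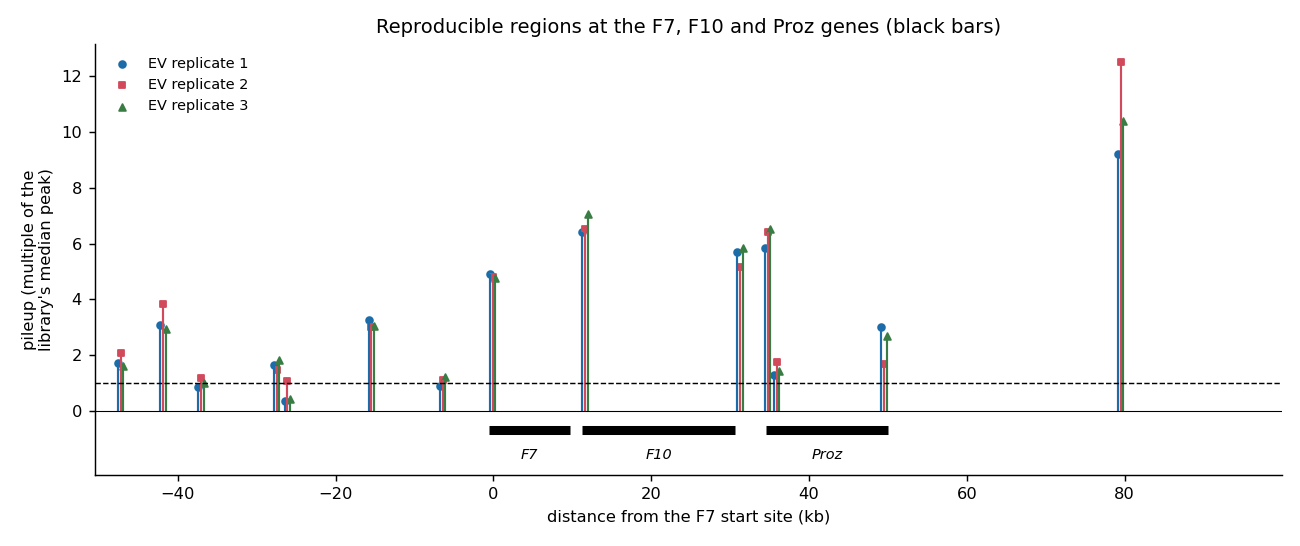
Reproducible regions around F7, F10 and Proz, plotted by distance from the F7 start site in kb, with pileup in each library as a multiple of its median peak (dashed line at 1). Black bars are the genes. The tallest signals of these genes stand at their ends, and the bar furthest to the right lies at the ends of Cul4a and Pcid2.

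Scaled to the median peak, the library labelled EV replicate 2 stood lower against the other libraries at these start sites than at most. Its pileup, as a multiple of the median peak, was divided by the mean of replicates 1 and 3. The median peak, 133, 125 and 157, did not follow the tags, 96066404, 116147036 and 117450440. Which height counts as equal therefore depends on this scale, and no ratio per tag is given. The median ratio was 0.92 at complement genes, 0.96 at coagulation genes and 1.38 at all 11078 open start sites. Replicate 2 was lower by more than 1.5 times at 2 of 14 complement genes and 3 of 16 coagulation genes, against 173 of 11078 open genes. It was higher by that much at 1 and 1, against 3729. The 1 complement gene was Vtn, at 1.68, through the region upstream of its start, and the region over the Vtn start gave 0.85. With the region nearest the start in place of the tallest, the medians were 0.85, 0.96 and 1.38, and replicate 2 was higher by more than 1.5 times at 0 of 14 complement genes and 1 of 16 coagulation genes, against 3770 of 11078. The lowest ratios were 0.41 at Hrg, 0.49 at F11, 0.57 at Mbl1, 0.64 at C8a and 0.66 at Cpb2, and the highest, besides Vtn, was 1.78 at F12. The F12 ratio sets a replicate 2 summit 724 bp inside the gene against summits 22 bp before the start in replicates 1 and 3. Summits also lay apart at Serpinc1, C8a, F7 and Pros1. At Serpinc1, with a ratio of 0.70, the replicate 2 summit lay 1599 bp inside the gene, against 41 and 37 bp before the start. At C8a the replicate 1 summit lay 117 bp before the start, against 332 and 333 bp past it in replicates 2 and 3. Low CpG content moved with the replicate 2 ratio. At open starts with 5 CpG or fewer the median ratio was 0.94 for members and 1.17 for all protein-coding genes. At the rest it was 1.02 for members and 1.38 for all. The Sox4 signal of the same library is given above, and its part in these ratios was not tested.

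**Figure D5:**
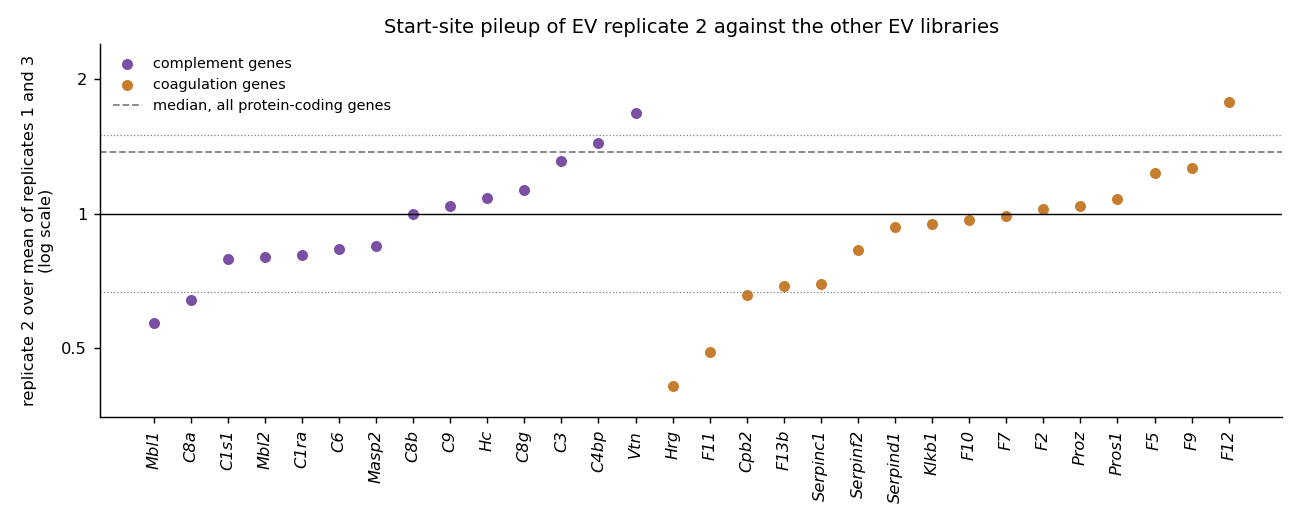
Start-site pileup of the library labelled EV replicate 2 over the mean of replicates 1 and 3, each as a multiple of its median peak, on a log scale, for 14 complement genes (left, purple) and 16 coagulation genes (right, orange). The solid line marks equal height, dotted lines a difference of 1.5 times, and the dashed line the median of all protein-coding genes, 1.38. Hrg is lowest at 0.41 and F12 highest at 1.78, and the Vtn point is a region upstream of its start. At F12 and Serpinc1 the replicate 2 summits lay 724 and 1599 bp inside the gene.

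Regions recurred between libraries at members as elsewhere. Of 767 distinct regions at the members, 487, or 63.5%, had a peak of all 3 libraries, against 61.5% of all 139289 regions. The share was 63.7% for complement and 63.3% for coagulation genes. Regions found only in replicate 2 made up 9.52% at members and 16.9% of all, and those missing only from replicate 2 made up 10.95% and 8.77%.

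Other genes of the pathways differed in how often they were open. Of all protein-coding genes, 64.4% were open at an end in all 3 libraries and 6363 of 21631 in none. Of 23 matched other complement genes, 9 were open at an end in all 3 libraries and 11 in none. The open ones were led by Cr2, complement receptor 2, at folds of 22.4, 20.3 and 23.6, and by Cd59a, an inhibitor of the terminal pore, at 14.7, 13.1 and 15.1. The closed ones included C1qb, which encodes a chain of C1q, a product of macrophages. Leukocyte genes of that list were not all closed: Fcna, a ficolin, and Itgb2, an integrin chain, both named after their values were seen, were open in all 3 libraries with pileups of 48, 66 and 101 and of 192, 124 and 208. Of 22 other coagulation genes, 18 were open in all 3 libraries and 3 in none. Procr, the endothelial receptor of protein C, led at folds of 18.9, 13.8 and 19.3, and Plau, urokinase, followed at 14.1, 15.1 and 14.5. The fibrinogen genes Fga, Fgb and Fgg were open, with gene-end pileups of 883, 868 and 1010, 655, 715 and 848, and 1102, 979 and 1209. F13a1, Tfpi and Vwf, products mainly of blood or endothelial cells, were open at no end in any library. Away from the ends, 10 reproducible regions lay inside Vwf and 2 inside Tfpi, so these genes were not closed throughout.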

How the data were processed

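ATAC-seq peak lists of 3 EV hepatocyte libraries were used. Per the submitters' processing notes, the tools were Bowtie2, Picard, deepTools and MACS2 and the build was mm10. Peaks were called with MACS 2.2.7.1 on each library without a control, with reads shifted by 100 bp and extended to 200 bp, duplicates kept, a q cutoff of 0.05 and a regional background of 10000 bp, per the file headers. The authors deposited the pileup signal, −log10 p and −log10 q, and fold enrichment as a ratio, which are theirs and were used to describe and rank peaks within a list. The headers give 96066404 to 117450440 tags. Lists hold no counts, so no intervals are given.

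Lines with 1 interval were taken as 1 peak. Peaks overlapping by 1 bp or more were merged into regions, and a region with a peak of all 3 libraries is called reproducible. Genes and promoters came from RefSeq GRCm38.p6, which shares mm10 coordinates. Gene-end windows reached 1000 bp on either side, flanks 50 kb. Where several peaks met a window, the tallest pileup and the highest fold were taken separately. Python 3.11.15, numpy 2.4.6 and pandas 2.3.3 were used, and the interval code was tested on simulated data. No test was run between genes, which are not replicates.

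The members and lists were chosen with earlier results of these data known. C4a of the other complement genes matched no protein-coding gene. Every member may be named, and per-library values were given to members lacking a gene-end peak somewhere, the 5 highest and 3 lowest of each class by percentile of fold, the 3 with most regions inside and in the flanks, those whose fold differed by more than 2 times between libraries, and neighbours. Further members appear for their roles. Alternatives changed windows, thresholds, libraries and ranks.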

Additional observations from a re-analysis of the deposited data

How the results depend on the processing

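Of 91 alternative values, 76 stayed within 1.5 times of the reported value or, for percentiles of fold, within 1 SD over libraries. The counts of genes open at an end stayed between 19 and 21 for complement genes and at 20 for coagulation genes under windows of 500 and 2500 bp, a −log10 q of 10 or more, the 50000 peaks with the highest −log10 q, each library left out and a peak in any library. At start sites alone they were 14 of 16 and 16 of 17.

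With 50000 peaks per library, the median regions inside a gene fell to 0 in both classes, the median flanking regions to 5 for complement and 3 for coagulation genes, and the percentile of fold to 27.4 and 37.9. Flanks of 25 kb gave medians of 5 and 3.5, and flanks of 100 kb gave 16.5 and 15. Ranking by pileup in place of fold gave percentiles of 89.9 and 92.4. The coagulation percentile was 67.3 at a −log10 q of 10 or more and 63.0 at start sites alone, where the complement value was 61.5. Fewer peaks and other window sizes give other counts by construction, and the cause of the other shifts was not tested. Without each library in turn, the flanking medians ran from 10.5 to 12.5 for complement and 7 to 7.5 for coagulation genes, and the percentiles from 62.9 to 68.9 and 71.2 to 73.6.

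Alternatives for the CpG classes, both gene ends and the replicate 2 ratio were chosen after seeing the data. With 3 CpG or fewer, 11 of 14 members and 486 of 3945 protein-coding genes had an open start, and with 10 or fewer these were 28 of 31 and 1878 of 7193. No paired analysis was possible because there is 1 group of libraries. Without counts outside peaks, depth limits which weak regions were called.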
